A study of Rattus norvegicus with 20 samples.

Results

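Transcript levels of the Slc25 family, the carriers of the inner mitochondrial membrane, were compared across 4 groups of male ZDF (Zucker diabetic fatty) rats, whose obese animals become diabetic. Members were all genes whose single gene symbol starts with Slc25a. This rule found 40 of 14557 genes with 1 symbol, each measured by 1 feature of the array. By RefSeq annotation 38 of them are protein coding and 2, Slc25a5-ps7 and Slc25a39-ps5, are pseudogenes, and the members lie on 16 chromosomes. Slc25a3, the phosphate carrier, and Slc25a13, a second aspartate/glutamate carrier, are not analysed here.

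RNA came from tissue that the labels name only as retroperitoneal, and each group held 5 arrays called biological replicates. Lean control rats ate a standard chow and obese rats a stock diet for 6 weeks, so that obesity and diet cannot be told apart. The rosiglitazone group is named for a drug that activates the nuclear receptor PPARG, the resveratrol group for a plant polyphenol. The labels call the strain Zucker and name no alleles. Drug doses, and what the treated rats ate, are not stated. Nor do the labels say that the treated rats were obese, which the comparisons with obese arrays take for granted. All values are log2 levels summarised per gene. A difference of 1 is a 2-fold change, and the threshold was a limma adjusted p under 0.05 over all 14557 genes. Probes differ in response, so no level is set against that of another gene. In whole tissue, fewer cells of a type and less RNA per cell cannot be told apart.

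The inner membrane of mitochondria is nearly closed to charged molecules, and Slc25 carriers exchange metabolites, nucleotides, cofactors and ions between the matrix and the cytosol. In adipose tissue the citrate, dicarboxylate and oxoglutarate carriers link the tricarboxylic acid cycle to the acetyl groups and reducing power used to make fatty acids, while the carnitine/acylcarnitine carrier brings fatty acids in for oxidation. ADP/ATP carriers exchange ADP, which oxidative phosphorylation uses, for the ATP that it makes. The related uncoupling protein Ucp1 lets protons back in brown adipocytes and so releases heat.

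As a check of the tissue, Adipoq, the adipocyte hormone adiponectin, lay between 9.92 and 11.2 on the 20 arrays. Its lowest level was on resveratrol array 1, and the next lowest was 10.8. The same array was above the other 4 of its group by at least 2 log2 units in 6 of 6 skeletal muscle and 5 of 5 milk protein markers, and below them in 6 of 6 adipocyte markers. Obese array 2 was above its group by at least 2 in 5 of 5 urothelial markers. Rosiglitazone array 2 was above its group in brown adipocyte markers, which are described below with the carriers. Refits left out these arrays, and values from them stand beside the results they change. The mean deviation of the milk protein markers from their means over all arrays was 6.73 on resveratrol array 1 and 0.55 on resveratrol array 2. On all other arrays it was -0.61 to -0.16. Resveratrol array 2 was left out only where single arrays were dropped.

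In the rosiglitazone group 13 members rose against the obese group and 1 fell, which is 35.0% of the 40 members beside 9.86% of all genes tested. For rises alone 7.19% of all genes passed, and for falls 2.67%. The members that rose were Slc25a20, Slc25a35, Slc25a10, Slc25a1, Slc25a39, Slc25a11, Slc25a5-ps7, Slc25a17, Slc25a32, Slc25a33, Slc25a15, Slc25a4 and Slc25a28, in order of the size of the difference from 1.97 to 0.51. Slc25a2 fell by 0.62. The median difference was 0.30 over the members and 0.01 over all genes. For 10 members the 5 rosiglitazone arrays and the 5 obese arrays did not overlap, 25.0% of the members beside 8.33% of all genes. Without resveratrol array 1, obese array 2 and rosiglitazone array 2 the count was 10, with 9 higher and 1 lower.

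Upstream sequences are shown for the 4 members with the largest rises, as the context of the genes the results turn on. Each is the stretch of 250 bases before the annotated start of the gene, from RefSeq on build GRCr8, written 5′ to 3′ on the strand of the gene. Slc25a20 lies at chr8:118243323-118243572, Slc25a1 at chr11:96559804-96560053, Slc25a10 at chr10:106264146-106264395 and Slc25a35 at chr10:54172115-54172364, all on the + strand. Capitals mark matches on either strand to GGGCGG, the GC box, to CCAAT, and to CCGGAAG, which holds the core bound by ETS factors.
Slc25a20: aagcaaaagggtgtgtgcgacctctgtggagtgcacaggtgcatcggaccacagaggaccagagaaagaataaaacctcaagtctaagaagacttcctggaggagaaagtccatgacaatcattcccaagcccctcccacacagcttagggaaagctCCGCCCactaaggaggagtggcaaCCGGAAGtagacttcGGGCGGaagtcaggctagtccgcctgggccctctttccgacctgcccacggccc
Slc25a1: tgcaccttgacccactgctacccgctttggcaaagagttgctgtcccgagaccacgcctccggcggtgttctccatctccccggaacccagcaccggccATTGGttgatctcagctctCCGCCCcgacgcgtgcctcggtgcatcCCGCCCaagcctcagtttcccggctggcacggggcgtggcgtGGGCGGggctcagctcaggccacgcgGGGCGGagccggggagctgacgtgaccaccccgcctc
Slc25a10: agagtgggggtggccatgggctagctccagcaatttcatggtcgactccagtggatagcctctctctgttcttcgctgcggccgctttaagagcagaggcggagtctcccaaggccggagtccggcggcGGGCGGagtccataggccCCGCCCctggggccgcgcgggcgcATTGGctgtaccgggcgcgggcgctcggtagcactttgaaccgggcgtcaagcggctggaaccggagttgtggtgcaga
Slc25a35: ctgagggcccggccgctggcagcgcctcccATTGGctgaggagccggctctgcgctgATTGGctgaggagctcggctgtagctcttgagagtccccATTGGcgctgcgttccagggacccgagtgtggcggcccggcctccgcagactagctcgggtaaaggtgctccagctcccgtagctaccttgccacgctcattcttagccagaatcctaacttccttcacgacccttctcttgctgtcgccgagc

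Slc25a1 held 4 GC boxes and 1 CCAAT match, and Slc25a35 held 3 CCAAT matches and 0 GC boxes. Slc25a20 was the only one of these 4 with CCGGAAG. The half-site of nuclear receptors, AGGTCA, was in 0 of these 4 sequences. Upstream sequences were matched for 32 members, in 33 windows since Slc25a43 has a pair of them. GGGCGG was present in 18 of the 32 members (56.2%) beside 30.5% of 33469 promoters of all genes, and CCAAT in 17 (53.1%) beside 34.0%. Members were counted per gene and the 33469 per promoter. Those promoters were not limited to genes measured here, so the sets are not matched. CCGGAAG was in 5 members (15.6%) beside 7.27%, and AGGTCA in 5 (15.6%) beside 14.1%. DR1, a pair of these half-sites with 1 base between them, was in 0 members and in 0.0508% of all promoters. Of 11 risen members with a sequence, 9 held CCAAT, 8 GGGCGG, 2 CCGGAAG and 1 AGGTCA. The motifs were read on both strands, DR1 contains the half-site, and other overlaps were left in. A match is no measured binding site. Median GC content was 57.2% over the members' windows and 51.2% over all, and its part in these shares was not tested.

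Of the 6 carriers of carboxylates and of aspartate and glutamate, 3 rose with rosiglitazone against obese arrays and 0 fell. Slc25a1 exports citrate, the source of cytosolic acetyl-CoA. Its level was 5.18, 4.53, 4.91, 4.75 and 4.96 on lean control arrays 1 to 5 and 4.74, 4.76, 4.44, 4.70 and 4.64 on obese arrays 1 to 5. Rosiglitazone arrays 1 to 5 stood at 6.25, 6.32, 5.62, 6.55 and 5.71, and resveratrol arrays at 4.62, 4.61, 4.43, 4.74 and 4.65. Every rosiglitazone array lay above every array of the other groups. The mean was 6.09 ± 0.41 with rosiglitazone and 4.66 ± 0.13 in obese rats (SD, n = 5), a rise of 1.43 (SE 0.16, 2.70-fold, limma adjusted p = 1.86e-05). Against lean controls the difference was 1.22 (adjusted p = 0.000114) and against resveratrol 1.48 (adjusted p = 1.23e-05).

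Slc25a10 exchanges malate or succinate for phosphate. Lean control arrays 1 to 5 had it at 7.16, 6.72, 7.18, 6.63 and 7.44, and obese arrays at 6.78, 6.07, 6.08, 6.27 and 6.27. With rosiglitazone the 5 levels were 8.05, 7.23, 7.58, 8.39 and 7.45, and with resveratrol 6.31, 7.13, 6.73, 6.81 and 7.14. Rosiglitazone arrays were above all obese and all resveratrol arrays but overlapped the lean control arrays. The rise over obese rats was 1.45 (SE 0.22, 2.73-fold, adjusted p = 0.000236), from 6.29 ± 0.29 to 7.74 ± 0.47. Obese arrays were 0.73 under lean control arrays in the mean, which did not pass (limma adjusted p = 0.152), and rosiglitazone was 0.71 over lean control (adjusted p = 0.0602).

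Slc25a11, the oxoglutarate/malate carrier of the malate-aspartate shuttle, had levels of 7.26, 7.09, 7.07, 6.81 and 6.82 in lean controls and 6.94, 6.47, 6.77, 6.78 and 6.81 in obese rats. Its levels with rosiglitazone were 7.97, 8.49, 7.38, 7.79 and 7.71, and with resveratrol 6.55, 7.26, 6.73, 7.17 and 6.88. As for Slc25a1, each rosiglitazone array exceeded all arrays of the other groups, and array 2 was the highest. The rise over obese rats was 1.12 (SE 0.18, 2.17-fold, adjusted p = 0.000357), and over lean controls 0.86 (adjusted p = 0.00523).

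Slc25a12, the aspartate/glutamate carrier that works beside Slc25a11 in the same shuttle, did not pass. It was at 6.22, 5.27, 5.71, 6.22 and 5.28 in lean controls and 5.67, 5.83, 6.10, 5.68 and 5.94 in obese rats. Rosiglitazone arrays had 5.58, 4.60, 6.12, 5.45 and 6.09, and resveratrol arrays 6.19, 6.46, 5.99, 5.76 and 6.03. The groups overlapped, and rosiglitazone array 2 was the lowest of all 20. Rosiglitazone minus obese was -0.28 (95% interval -0.79 to 0.23, limma adjusted p = 0.554), and -0.04 (adjusted p = 0.951) without that array. Slc25a18, a glutamate carrier, and Slc25a21, the oxodicarboxylate carrier, had means under the median gene level of 3.02 in every group, where the distance from background was not tested. Slc25a21 was lower with rosiglitazone than in lean controls, at 1.85 ± 0.19 against 2.45 ± 0.30 (difference -0.60, adjusted p = 0.0329), a call that held in 21 of 29 alternatives. Its difference from obese arrays was -0.08 (adjusted p = 0.828).

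**Figure D1:**
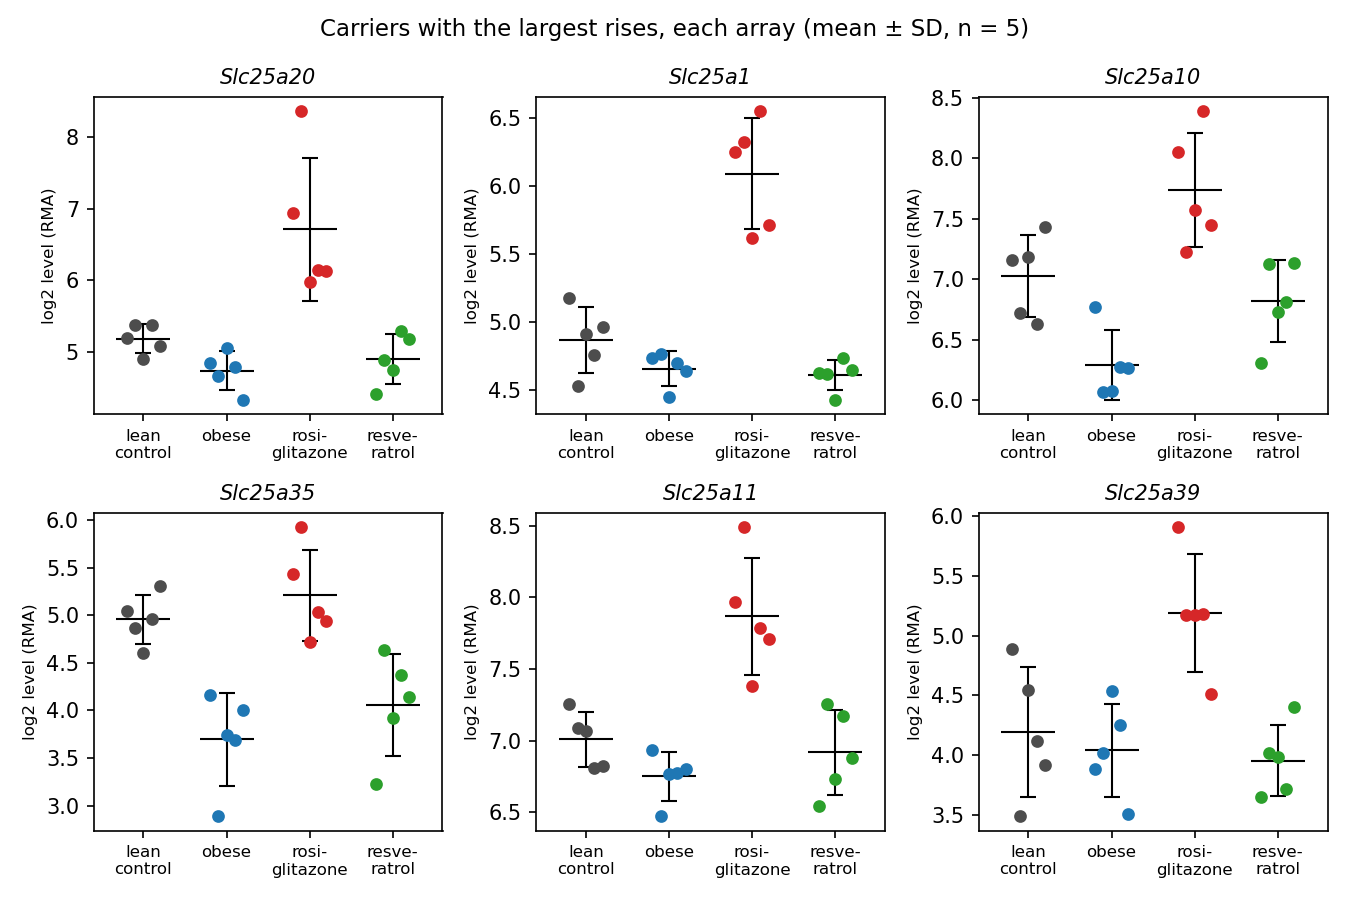
Log2 level (y axis) of the 6 carriers with the largest rises on each array, by group (x axis); points are arrays, and bars show the mean ± SD of 5 arrays. Rosiglitazone arrays of Slc25a1 lie between 5.62 and 6.55 and all others at 5.18 or lower, and Slc25a35 is low in obese rats, at 2.89 to 4.16.

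Carriers of carnitine esters and basic amino acids held both the largest rise of the family and its single fall against obese arrays: 2 of 6 rose and 1 fell. Slc25a20, the carnitine/acylcarnitine carrier of fatty acid oxidation, stood at 5.20, 5.37, 4.90, 5.38 and 5.09 in lean controls and 4.85, 4.67, 5.07, 4.79 and 4.34 in obese rats. Its levels were 6.93, 8.36, 5.98, 6.15 and 6.14 with rosiglitazone and 4.42, 4.89, 4.75, 5.30 and 5.18 with resveratrol. No rosiglitazone array overlapped another group, and array 2 lay far above the other 4. The mean rose from 4.74 ± 0.27 to 6.71 ± 1.0, by 1.97 (SE 0.31, 3.92-fold, adjusted p = 0.000389). Without rosiglitazone array 2 the rise was 1.56 (adjusted p = 5.75e-05). Rosiglitazone was also higher than lean control by 1.52 (adjusted p = 0.00523) and than resveratrol by 1.80 (adjusted p = 0.00136).

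Slc25a15, an ornithine carrier of the urea cycle, rose from 3.76 ± 0.13 to 4.31 ± 0.12 (difference 0.56, SE 0.17, adjusted p = 0.0458), a call that held in 11 of 30 alternatives. Without the 3 arrays that stand apart the difference was 0.59 (adjusted p = 0.0601). Slc25a2, a second ornithine carrier known from human cells, moved the other way. It stood at 3.07, 2.52, 2.59, 2.66 and 2.84 in lean controls and 2.72, 2.44, 2.63, 2.33 and 2.30 in obese rats. Rosiglitazone arrays had 1.62, 2.06, 1.98, 1.74 and 1.96 and resveratrol arrays 2.53, 2.22, 2.64, 3.06 and 3.12. All rosiglitazone arrays were below all arrays of the other groups. The difference was -0.62 from obese (SE 0.16, adjusted p = 0.0196), -0.86 from lean control (adjusted p = 0.00278) and -0.84 from resveratrol (adjusted p = 0.00293). All of these levels lie near or under the median gene level of 3.02, so no fold is given. The call against obese was lost without rosiglitazone array 1 (adjusted p = 0.0583). Slc25a29, a carrier of basic amino acids, Slc25a45 and Slc25a47 did not pass, with differences of -0.28 to 0.02.

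Among the 9 carriers of adenine nucleotides and coenzyme A, 3 rose and 0 fell against obese arrays. Slc25a4, the ADP/ATP carrier best known from heart and muscle, stood at 7.86, 7.50, 7.73, 7.39 and 7.05 in lean controls and 7.62, 7.23, 7.60, 7.61 and 7.49 in obese rats. With rosiglitazone it was 8.03, 8.34, 7.81, 8.0 and 7.93, and with resveratrol 7.74, 7.54, 7.74, 7.78 and 7.70. Rosiglitazone arrays were above all obese and all resveratrol arrays, and array 2 was the highest. The rise over obese rats was 0.51 (SE 0.14, 1.42-fold, adjusted p = 0.0262). This call held in 23 of 30 alternatives. It was lost at 0.43 (adjusted p = 0.0721) without rosiglitazone array 2, at 0.36 (adjusted p = 0.158) without the 3 arrays that stand apart, and at 0.26 (adjusted p = 0.243) with quantile normalisation again. Over lean control it was 0.51 higher (adjusted p = 0.0363), which held in 18 of 30 alternatives.

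Slc25a5, the widely expressed ADP/ATP carrier, was 5.50, 4.88, 5.13, 4.5 and 5.37 in lean controls and 5.85, 5.07, 5.33, 5.75 and 5.77 in obese rats. Its rosiglitazone levels were 6.37, 6.36, 6.17, 5.63 and 6.53, and its resveratrol levels 4.86, 5.61, 5.60, 5.57 and 5.06. Rosiglitazone overlapped the obese group on array 4 alone and lay above all lean control and resveratrol arrays. The difference from obese was 0.66 (SE 0.21, adjusted p = 0.0547) and did not pass, while those from lean control (1.14, adjusted p = 0.00272) and resveratrol (0.87, adjusted p = 0.0153) did.

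The feature of Slc25a5-ps7, annotated as a pseudogene of Slc25a5, rose as well. Levels were 7.62, 6.27, 6.43, 6.63 and 6.91 in lean controls, where array 1 was the highest, and 7.22, 6.44, 7.01, 6.50 and 6.90 in obese rats. Rosiglitazone arrays stood at 8.02, 8.17, 7.53, 7.48 and 7.79 and resveratrol arrays at 6.53, 7.36, 6.74, 7.06 and 7.02. All rosiglitazone arrays were above all obese and resveratrol arrays, but arrays 3 and 4 lay under lean control array 1. The rise over obese rats was 0.99 (SE 0.23, 1.98-fold, adjusted p = 0.00749). Which transcripts of Slc25a5 or its copies this feature detects was not tested, so its gene is uncertain.

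Slc25a17, a peroxisomal member that carries coenzyme A and other nucleotide cofactors, stood at 6.18, 6.02, 5.50, 5.78 and 5.65 in lean controls and 6.12, 4.98, 5.64, 5.61 and 5.43 in obese rats. Its levels were 6.62, 6.68, 6.24, 5.98 and 6.43 with rosiglitazone and 5.85, 6.05, 5.83, 5.87 and 5.95 with resveratrol. Rosiglitazone array 4 lay under obese array 1, and the other 4 rosiglitazone arrays were above all obese arrays. The rise was 0.83 (SE 0.18, 1.78-fold, adjusted p = 0.00477). Slc25a42, the mitochondrial coenzyme A carrier, had a difference of 0.76 that did not pass (SE 0.28, adjusted p = 0.0959). Rosiglitazone array 2 had it at 5.40 and the other 4 of the group at 3.41 to 3.89, and without that array the difference was 0.41 (adjusted p = 0.226). Slc25a24, a carrier of ATP-Mg and phosphate, varied most in lean controls, from 4.28 to 6.16, and differed by 0.05 between rosiglitazone and obese (adjusted p = 0.952). Slc25a31, Slc25a41 and Slc25a54 had differences of -0.09 to -0.03 at levels under the median gene.

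**Figure D2:**
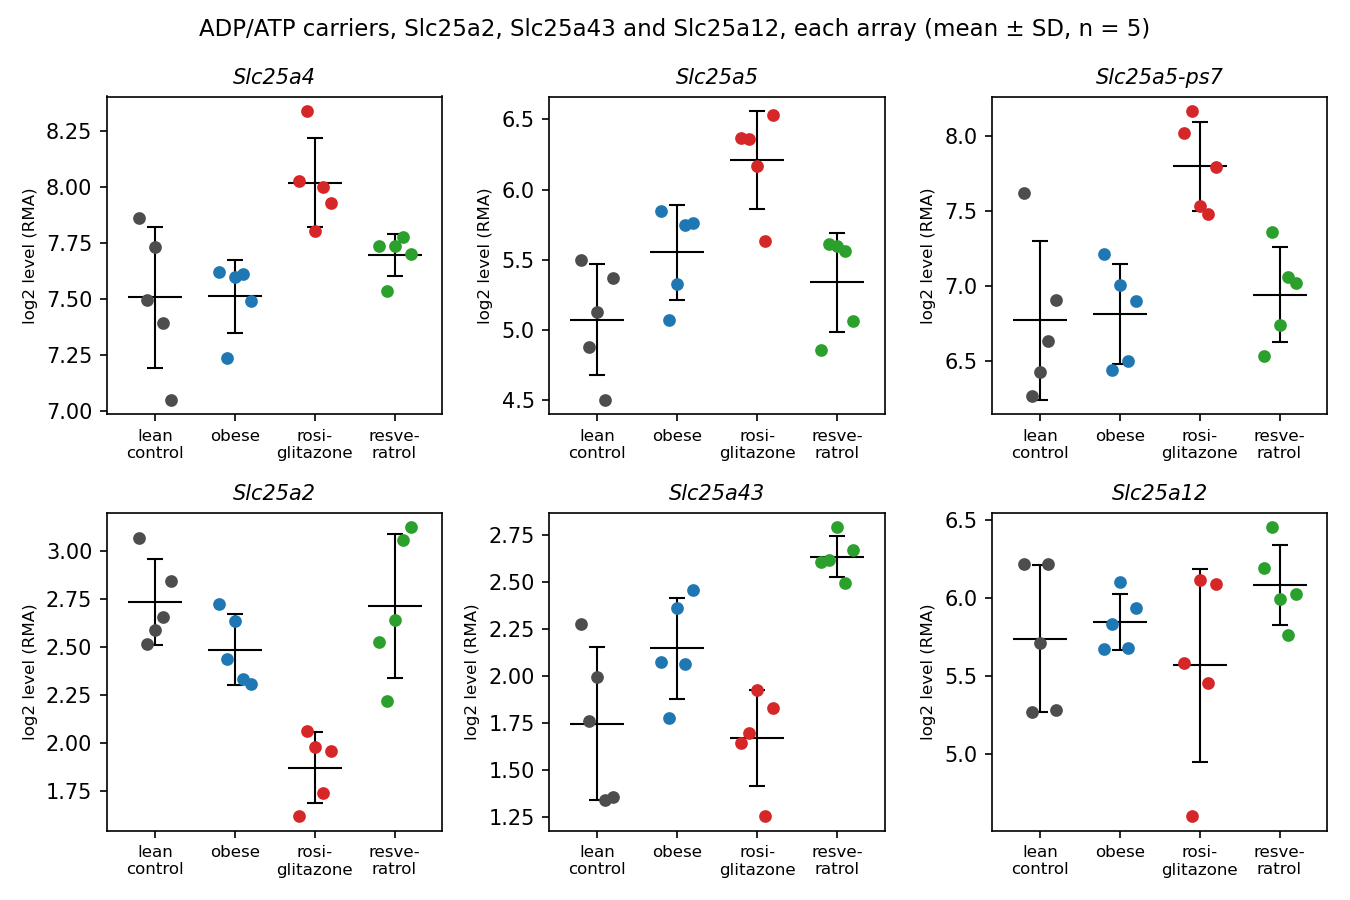
Log2 level (y axis) of the ADP/ATP carriers and of Slc25a2, Slc25a43 and Slc25a12 on each array, by group (x axis); points are arrays, and bars show the mean ± SD of 5 arrays. Slc25a4 is highest with rosiglitazone at 7.81 to 8.34, while Slc25a2 is lowest there at 1.62 to 2.06.

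Of the 9 carriers of cofactors, pyrimidine nucleotides and glutathione, 3 rose and 0 fell against obese arrays. Slc25a39 imports glutathione, the main thiol that protects the matrix from oxidation. It stood at 4.89, 3.49, 4.55, 4.12 and 3.92 in lean controls and 3.89, 4.02, 4.54, 4.25 and 3.51 in obese rats. With rosiglitazone the levels were 5.90, 5.17, 5.17, 5.18 and 4.51, and with resveratrol 3.65, 4.02, 3.98, 3.72 and 4.40. Lean control arrays were widely spread, and rosiglitazone array 5 lay just under the highest obese array, so these groups overlapped. The rise was 1.14 (SE 0.26, 2.21-fold, adjusted p = 0.00628) against obese and 1.23 (adjusted p = 0.00477) against resveratrol. It was also 0.99 over lean control (adjusted p = 0.0233), a call that held in 25 of 30 alternatives. The feature of its pseudogene Slc25a39-ps5 had a difference of -0.11 (adjusted p = 0.856).

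Slc25a32 carries folate and is also known as a carrier of flavin cofactor. It stood at 5.63, 5.94, 5.54, 5.36 and 5.24 in lean controls and 5.26, 5.06, 5.40, 5.47 and 5.12 in obese rats. Rosiglitazone arrays had 6.36, 6.43, 5.60, 6.02 and 5.84 and resveratrol arrays 4.41, 5.47, 5.31, 5.26 and 5.40. Rosiglitazone arrays were above all obese and resveratrol arrays, and resveratrol array 1 was the lowest of all 20. The rise over obese rats was 0.79 (SE 0.20, 1.73-fold, adjusted p = 0.0125), a call that held in 29 of 30 alternatives and had an adjusted p of 0.0506 with quantile normalisation again.

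Slc25a33, which carries pyrimidine nucleotides, stood at 4.96, 4.41, 3.97, 4.63 and 4.53 in lean controls and 4.43, 3.94, 3.55, 3.71 and 3.69 in obese rats. Its levels with rosiglitazone were 4.59, 5.07, 3.94, 5.03 and 4.18, and with resveratrol 3.71, 4.16, 4.03, 4.02 and 4.34. Lean control and rosiglitazone arrays covered nearly the same range, and obese array 1 lay within both. The rise over obese rats was 0.70 (SE 0.22, 1.63-fold, adjusted p = 0.0471), and this call held in 10 of 30 alternatives. Without the 3 arrays that stand apart the difference was 0.59 (adjusted p = 0.128). Slc25a51, the NAD carrier, differed by 0.42 (adjusted p = 0.245), and Slc25a26, which carries S-adenosylmethionine, by 0.10 (adjusted p = 0.803). Slc25a19l1, Slc25a51l1 and Slc25a52 were under the median gene level, with differences of 0.27, 0.33 and -0.04 that did not pass.

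Of the 4 carriers of iron, glycine and branched-chain amino acids, 1 rose against obese arrays. Slc25a28, the iron carrier mitoferrin 2, rose from 3.84 ± 0.18 to 4.35 ± 0.19 (difference 0.51, SE 0.15, adjusted p = 0.0326). That call held in 22 of 30 alternatives, and without the 3 arrays that stand apart the difference was 0.52 (adjusted p = 0.0519). Slc25a37, mitoferrin 1, had a larger difference of 1.02 that did not pass (SE 0.38, adjusted p = 0.0977). Rosiglitazone array 1 had it at 5.78 and the rest of that group at 2.56 to 4.08, and this group's SD of 1.2 was the largest of any member in any group. Without that array the difference was 0.54 (adjusted p = 0.249), and without rosiglitazone array 4 it was 1.35 and passed (adjusted p = 0.0198). Slc25a38, a glycine carrier of heme synthesis, differed by 0.15 (adjusted p = 0.587). Slc25a44, which brings branched-chain amino acids into mitochondria of brown fat, differed by 0.43 (adjusted p = 0.145).

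Among 6 uncoupling protein relatives and carriers without a settled substrate, 1 rose against obese arrays. Slc25a35 was the single member that passed between obese and lean control rats, 0 higher and 1 lower of 40, where 0.179% of all genes passed, 0.0412% higher and 0.137% lower. It stood at 5.04, 4.87, 4.60, 4.96 and 5.31 in lean controls and 4.16, 2.89, 3.74, 3.68 and 4.0 in obese rats. Rosiglitazone arrays had 5.43, 5.92, 4.72, 5.04 and 4.93, and resveratrol arrays 3.22, 4.63, 3.92, 4.38 and 4.14. All obese arrays lay under all lean control and all rosiglitazone arrays, and obese array 2 was the lowest. Obese minus lean control was -1.26 (SE 0.26, 2.40-fold lower, adjusted p = 0.04996). This call was lost in 22 of 30 alternatives and held in 8, among them the fit without the 3 arrays that stand apart. Over all 30 the adjusted p was 0.0261 to 0.147, the highest without obese array 2. Over all 40 members the median of obese minus lean control was -0.16, beside -0.05 over all genes.

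The rise of Slc25a35 with rosiglitazone was 1.51 over obese rats (SE 0.26, 2.86-fold, adjusted p = 0.000788), which takes its mean from 3.70 ± 0.49 to 5.21 ± 0.48 beside 4.96 ± 0.26 in lean controls. The difference from lean control was 0.25, with a 95% interval of -0.29 to 0.80 (adjusted p = 0.687). These comparisons share arrays: obese arrays stand in the first and in obese against lean control. Against resveratrol the difference was 1.15 (adjusted p = 0.00916). Resveratrol was 0.90 under lean control in the mean, which did not pass (adjusted p = 0.133). The uncoupling protein relatives Slc25a14 and Slc25a27, the unsettled Slc25a34 and Slc25a43, and Slc25a46, an outer membrane protein of mitochondrial shape, had differences of -0.48 to 0.47 from obese, and none of these 5 passed.

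**Figure D3:**
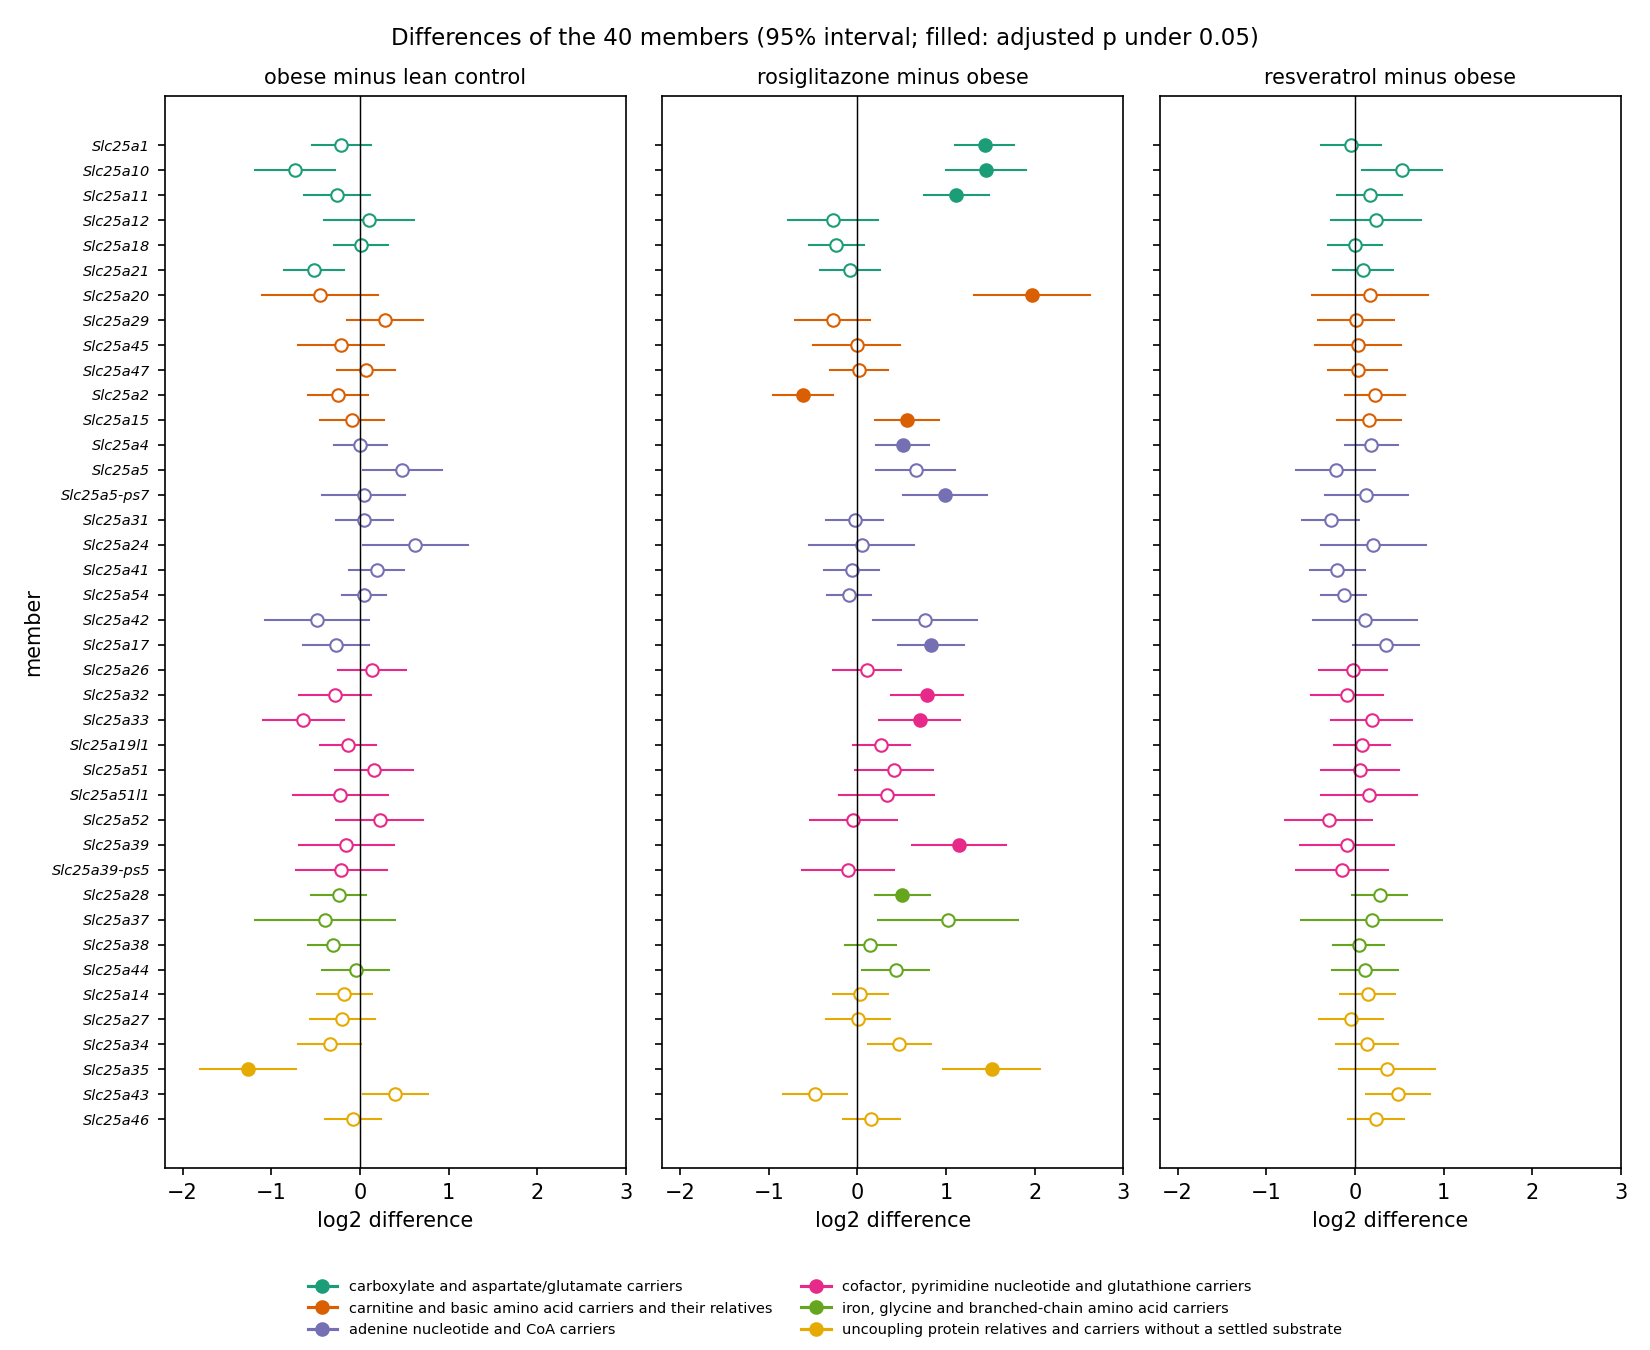
Log2 differences of the 40 members (x axis) in obese minus lean control, rosiglitazone minus obese and resveratrol minus obese (panels), with members on the y axis coloured by role; bars are 95% intervals, and filled points had an adjusted p under 0.05. In rosiglitazone minus obese 13 filled points lie to the right of 0 and 1, Slc25a2, to the left.

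Resveratrol and obese arrays differed in 0 of 40 members, as in 0% of all genes in this limma comparison. At an unadjusted p under 0.05 the counts were 2 of 40 members and 1286 of 14557 genes. Those members were Slc25a10 (0.53, SE 0.22, adjusted p = 0.503) and Slc25a43 (0.49, SE 0.18, adjusted p = 0.44). The median difference was 0.12 over members and 0.02 over all genes. For 1 member, Slc25a43, the arrays did not overlap, beside 1.97% of all genes. All 7 macrophage markers had positive differences, from 0.49 to 1.27, of which 0 passed and 4 had an unadjusted p under 0.05 in limma. Their part in the members' differences was not tested.

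Slc25a43, an X-linked carrier whose substrate is not settled, was also the 1 member that passed between resveratrol and lean control, where 0.124% of all genes did, 0.0275% higher and 0.0962% lower. Its lean control levels were 2.28, 1.76, 2.0, 1.34 and 1.36 and its obese levels 2.07, 1.78, 2.36, 2.07 and 2.46. Rosiglitazone arrays stood at 1.64, 1.70, 1.93, 1.26 and 1.83 and resveratrol arrays at 2.60, 2.62, 2.79, 2.49 and 2.67. Every resveratrol array was above every array of the other 3 groups, within the range under the median gene level of 3.02. Resveratrol and lean control arrays did not overlap for 2 members, beside 2.96% of all genes. Resveratrol was higher than lean control by 0.89 (SE 0.18, adjusted p = 0.0471) and rosiglitazone minus resveratrol was -0.96 (adjusted p = 0.00199). The first call held in 13 of 29 alternatives and the second in 29 of 29.

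Between the treated groups 9 members were higher with rosiglitazone and 2 lower, 27.5% of the members beside 6.9% of all genes (4.09% higher and 2.81% lower). The higher ones were Slc25a20, Slc25a1, Slc25a39, Slc25a35, Slc25a11, Slc25a10, Slc25a32, Slc25a5 and Slc25a5-ps7, by 1.80 down to 0.86, and the lower ones Slc25a43 and Slc25a2. The call of Slc25a5-ps7 held in 25 of 30 alternatives and that of Slc25a5 in 29 of 30. Without the 3 arrays that stand apart Slc25a5-ps7 differed by 0.66 (adjusted p = 0.110) and Slc25a5 by 0.71 (adjusted p = 0.0569). Arrays of the treated groups did not overlap for 12 members, beside 7.59% of all genes. Marker lists moved between the treated groups too. All 7 macrophage markers had negative differences, with a median of -0.99. Of these 7, 0 were higher and 2 lower past the threshold, and 4 did not overlap. Without the 3 arrays that stand apart 1 of the 7 was lower. Of 4 endothelial markers 1 was higher and 2 lower, and of 7 brown adipocyte markers 3 were higher. The part of these cell types in the members' differences was not tested. Against lean controls 7 members were higher with rosiglitazone and 2 lower, 22.5% beside 5.19% of all genes (2.63% higher and 2.56% lower). Those higher were Slc25a20, Slc25a1, Slc25a5, Slc25a5-ps7, Slc25a39, Slc25a11 and Slc25a4, by 1.52 down to 0.51, and the lower ones were Slc25a2 and Slc25a21. All comparisons of rosiglitazone share the same 5 arrays, so their counts are not independent. A test over the 4 groups at once passed for 12 of 40 members (30.0%), beside 8.83% of all genes.

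**Figure D4:**
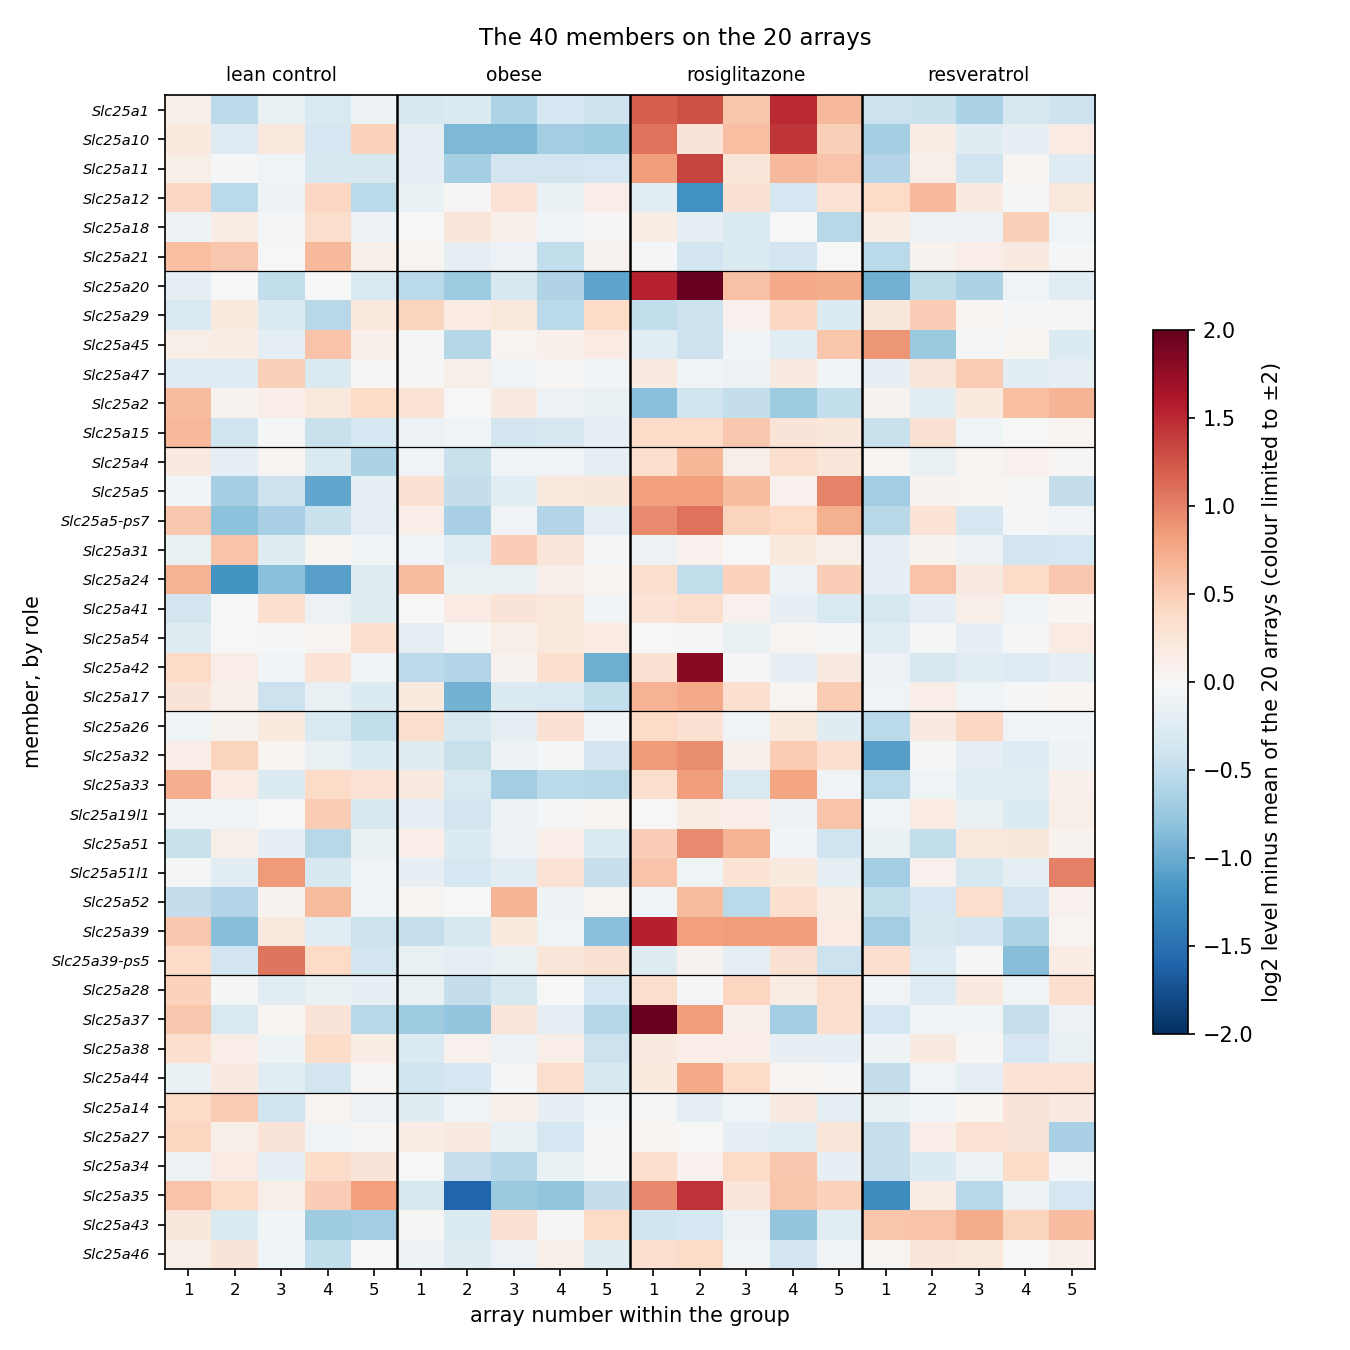
Log2 level of each of the 40 members (y axis, by role) on each of the 20 arrays (x axis, by group), as the deviation from the member's mean over all arrays, with colour limited to ±2. Slc25a20 on rosiglitazone array 2, at a level of 8.36, is the darkest raised cell of its row, and Slc25a37 stands out on rosiglitazone array 1, at 5.78.

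Seen array by array, the mean deviation of the 40 members from their means over the 20 arrays was 0.14 to 0.40 with rosiglitazone. It was -0.10 to 0.17 in lean controls, -0.32 to -0.07 in obese rats and -0.27 to 0.03 with resveratrol. Lean control array 1, at 0.17, was the only array outside the rosiglitazone group to enter that group's range. Obese array 2 and resveratrol array 1, which carry markers of other tissues, were the lowest of their groups. The median SD of a member within a group was 0.29 in lean controls, 0.25 in obese rats, 0.30 with rosiglitazone and 0.29 with resveratrol.

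Some markers of brown adipocytes were also higher with rosiglitazone. Of 7 measured, 3 rose against obese arrays, Ucp1, Cidea and Cpt1b, where 7.19% of all genes rose. Elovl3, Dio2, Cox8b and Ppargc1a did not pass. Ucp1 and Cpt1b are counted again in the pathway lists below, so these counts are not independent. Ucp1 levels were 5.83, 10.52, 4.82, 4.73 and 5.18 with rosiglitazone, against 0.95 to 3.78 on the other 15 arrays. Cox8b was 6.10 and Ppargc1a 6.69 on rosiglitazone array 2, beside 2.23 to 2.59 and 1.84 to 3.34 on the other 4 of the group. Elovl3, another defining marker, was at 0.98 to 1.82 on all arrays. The log2 of the summed level of the 7 markers was 10.4 to 12.3 with rosiglitazone, 7.97 to 9.47 in lean controls, 7.77 to 9.18 in obese rats and 6.98 to 9.71 with resveratrol. Levels were summed before the log, and Cidea held the largest part of the signal on every array, so this sum leans on 1 gene. On rosiglitazone array 2 Ucp1 at 10.52 and Cpt1b at 9.82 added to it beside Cidea at 11.3. Since probes differ in response, these are parts of the signal and not of the transcripts. Cidea was 10.1 to 11.3 with rosiglitazone and 6.47 to 9.58 on the other 15 arrays. The mean deviation of the 7 markers reached 3.16 on rosiglitazone array 2, with 0.54 to 1.10 on its 4 companions and -0.75 to -0.06 in the other groups. The part of brown adipocyte RNA in the carriers' rises was not tested. On the other 4 rosiglitazone arrays Ucp1, Cidea and Cpt1b were above every array of the other groups. Cox8b, Ppargc1a and Elovl3 overlapped the obese arrays there, and Dio2 was 1.41 to 2.04 beside 1.33 to 1.40 in obese rats. Without rosiglitazone array 2 the rise of Slc25a1 was 1.38 (adjusted p = 3.38e-05), that of Slc25a10 was 1.58 (adjusted p = 0.000112) and that of Slc25a11 was 0.96 (adjusted p = 0.000661). The rise of Slc25a4 did not pass without it, and the difference of Slc25a42 went from 0.76 to 0.41, as given above. Of the other 9 marker lists, 1 held genes that passed against obese: 1 of 4 endothelial markers rose and 2 fell.

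**Figure D5:**
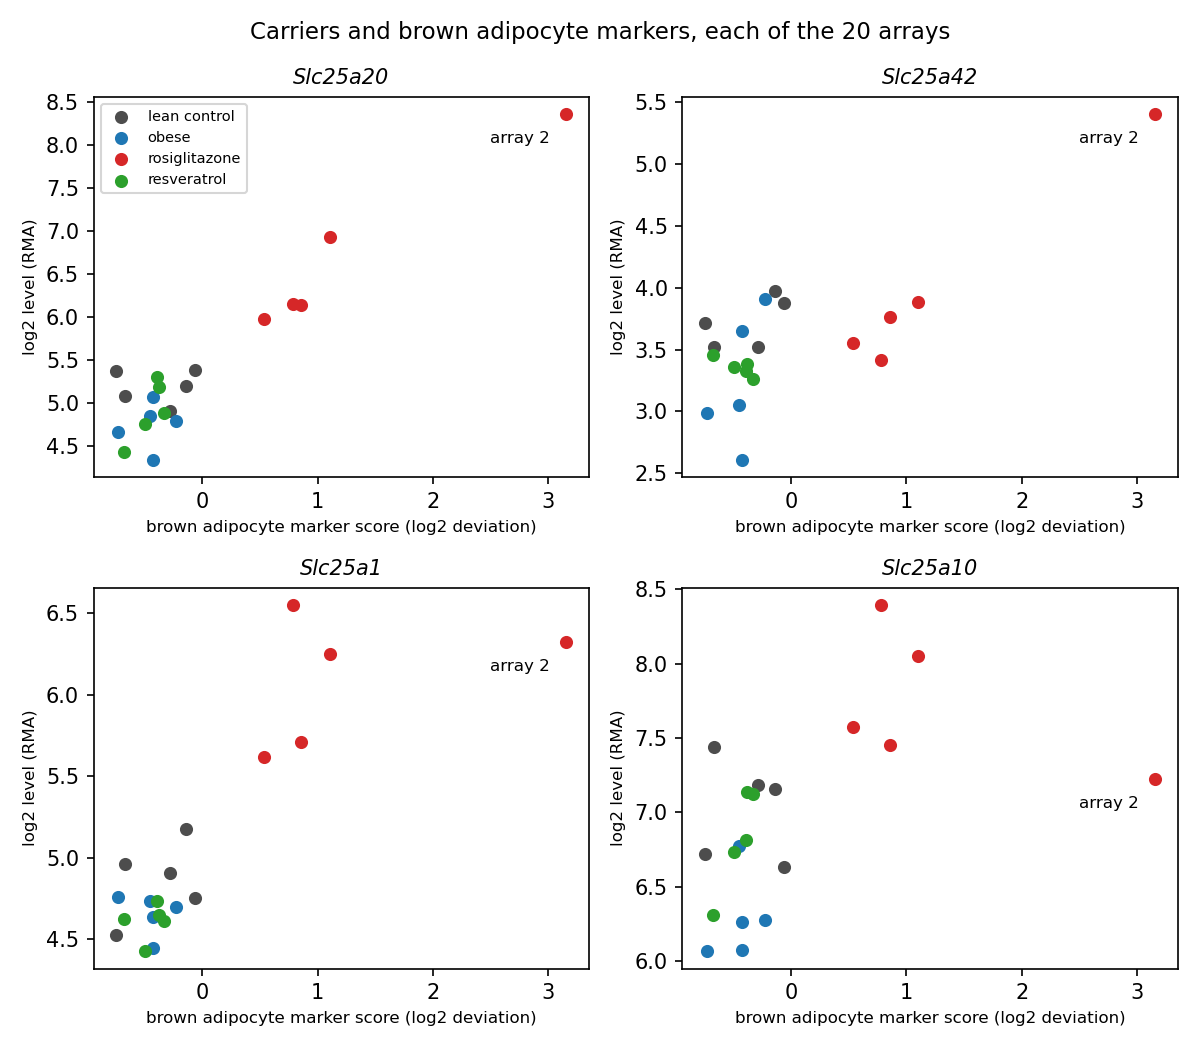
Log2 level of Slc25a20, Slc25a42, Slc25a1 and Slc25a10 (y axes) against the mean log2 deviation of the 7 brown adipocyte markers (x axes), with 1 point per array coloured by group. Rosiglitazone array 2, at 3.16 on the x axis, is the highest array for Slc25a20 and Slc25a42 and the lowest of its group for Slc25a10.

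Other genes of the same pathways were counted in 7 lists, with 61 of 81 entries measured. Of these 61, 31 rose and 1 fell in rosiglitazone against obese arrays, with a median difference of 0.60. Of all genes 7.19% rose and 2.67% fell, with a median of 0.01, and these shares also stand beside the counts of single lists below. Without rosiglitazone array 2, 28 of the 61 rose and 1 fell. Without the 3 arrays that stand apart 27 of the 61 rose and 1 fell. Ucp3, Vdac1, Vdac3, Fech and Gclm no longer passed there, while Got2 came to pass (0.85, adjusted p = 0.0329 in limma). The counts were 0 in obese against lean control and 0 in resveratrol against obese, where 12 and 3 had an unadjusted p under 0.05 in limma. Those are 19.7% and 4.92% of the 61, beside 13.5% and 8.83% of all genes. Family members under other symbols split: Ucp1 rose by 4.67 (adjusted p = 0.000404) and Ucp3 by 1.0 (adjusted p = 0.0409), which was 0.91 (adjusted p = 0.0885) without rosiglitazone array 2. Ucp2 at 0.17 and Mtch1 at 0.16 did not pass.

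Enzymes around the citrate and malate carriers rose in 7 of 11 cases, with 0 lower and a median of 1.05. Mdh2, the malate dehydrogenase of the matrix, rose by 1.45 (SE 0.28, 2.73-fold, adjusted p = 0.00183), and cytosolic Mdh1 by 1.05 (SE 0.26, 2.07-fold, adjusted p = 0.0129). Partners of the carnitine carrier rose in 3 of 5 cases. Cpt2, which frees the acyl groups that Slc25a20 brings in, rose from 4.65 to 6.74, by 2.09 (SE 0.30, 4.25-fold, adjusted p = 0.000152). Crot, the peroxisomal carnitine octanoyltransferase, rose by 0.87 (adjusted p = 0.00416), while Cpt1a differed by -0.56 and did not pass.

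Partners of the ADP/ATP carriers rose in 4 of 5 cases and fell in 1, the ATP synthase subunit gene Atp5f1c, by -0.98 in log2. Partners of the amino acid carriers rose in 4 of 8, among them Bckdhb, a subunit of the branched-chain ketoacid dehydrogenase, by 1.32 (SE 0.23, adjusted p = 0.000856), and Prodh, the proline dehydrogenase, by 0.75 (adjusted p = 0.0119). Partners of the cofactor and metal carriers rose in 8 of 13. In that list Shmt2, of mitochondrial folate metabolism, rose by 0.92 (adjusted p = 0.00859), Coasy, which completes coenzyme A, by 0.74 (adjusted p = 0.00547), and Nmnat3, a mitochondrial NAD synthase, by 0.90 (adjusted p = 0.00484). Mitochondrial transporters outside the family rose in 3 of 15, with a median of 0.24. These were Letm1, an inner membrane ion exchanger, by 1.10 (SE 0.20, adjusted p = 0.00121), and the outer membrane channels Vdac1 by 0.60 (adjusted p = 0.0367) and Vdac3 by 0.57 (adjusted p = 0.0119). Without the 3 arrays that stand apart 1 of the 15, Letm1, rose.

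Some members are neighbours in the rat genome. Slc25a43 and Slc25a5 lie on chromosome X with 5 genes and 0 protein coding genes between them in RefSeq. Between the treated groups their differences were unlike: with rosiglitazone Slc25a5 was 0.87 above and Slc25a43 was at -0.96 relative to resveratrol. Against lean control the means of both were higher in obese and in resveratrol arrays, where only that of Slc25a43 with resveratrol passed. Levels of Slc25a43 lie under the median gene. Slc25a54 and Slc25a24 are adjacent on chromosome 2, and neither passed in any comparison. Slc25a29 and Slc25a47 lie on chromosome 6 with 2 genes between them, and neither passed.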

How the data were processed

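Total RNA, 100 ng per sample, from 20 samples was hybridised to Affymetrix whole-transcript arrays, per the labels' protocols. The authors deposited 1 table of log2 values made with RMA, per the submitters' processing notes, which corrects background, normalises quantiles and summarises probes. No version or settings of RMA are named in the labels or files, and the log2 scale was read from the values. Each column was matched to its sample by title.

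Of 36685 features, 14824 had 1 gene symbol in the platform's table, 829 had several and 21032 were not listed there. Where a gene had several features (234 genes), the brightest on average was kept, which left 14557 genes. Group means over all 20 arrays were fitted with limma 3.58.1 in R 4.3.3 (lmFit, contrasts.fit, eBayes; 16 residual and 5.41 prior degrees of freedom), with Benjamini-Hochberg adjustment over all genes. Tests are two-sided, each SE and 95% interval comes from this fit, and 4 groups were tested with the moderated F. Precision is limited by the number of arrays, with a median SE of 0.173 over all genes.

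Members, role groups, 7 pathway lists and 10 marker lists (skeletal muscle, adipocyte, brown adipocyte, urothelium, milk protein, liver, kidney, adrenal, macrophage and endothelium) were chosen with earlier results of these data known. Values in every array are given for members past the threshold in comparisons of obese or resveratrol arrays without rosiglitazone. They are also given for the 10 largest rises and 6 largest falls past it in rosiglitazone against obese, and for carriers fixed for their role. No fold is given where a compared mean is under the median gene level of 3.02. A score is the mean deviation of a list's members from their means over all arrays.

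Alternatives were a repeated quantile normalisation, centring, leaving out dim genes, the mean of a gene's features, robust eBayes with a trend and weights per array. Others were a fit of the compared groups alone, a block for the replicate number, and leaving out single arrays or the arrays that stand apart. Refits of the pathway and marker lists without such arrays were chosen after seeing the data. Promoters were matched by gene ID.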

Additional observations from a re-analysis of the deposited data

Results flagged for a closer look

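Slc25a32, the folate carrier, stood at 4.41 on resveratrol array 1 and at 5.26 to 5.47 on the other 4 resveratrol arrays, a gap of 0.799 of the range of the group, above Dixon's critical value of 0.71 for 5 samples. The same array carries the skeletal muscle and milk protein markers described above, and their part in this level was not tested. Of 60 groups of 5 arrays tested (15 members in 4 groups) 1 was singled out in this way, and chance alone would single out about 1 in 20.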

How the results depend on the processing

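The 36 calls of single members kept their direction in every refit. Of the 204 differences that had not passed, 65 took the other sign in some refit, none of them past the threshold. The refits share most arrays with the main fit, so a call could hardly change direction. Leaving out an array of a group outside a comparison, or taking the mean of features, leaves a member's difference as it was. Such refits also stand in the counts of alternatives in which a call held. Of 7128 refitted values 6971 kept the side of the threshold, 125 lost a call and 32 gained one. Most of the 7128 belong to the 204 differences that had not passed, 1188 of them to resveratrol against obese, where all kept their side. A call could be lost only among refits of the 36 calls, so the 125 are not to be read as a share of the 7128. In rosiglitazone against obese 8 of 14 calls passed in every alternative, in rosiglitazone against resveratrol 9 of 11, and in rosiglitazone against lean control 6 of 9. Counts of members with 1 array left out were 9 to 15 for rosiglitazone against obese (9 without rosiglitazone array 1), 6 to 11 against lean control (6 without lean control array 2 or 4), 10 to 11 against resveratrol and 10 to 15 over the 4 groups. They were 0 to 1 for obese against lean control, 0 to 2 for resveratrol against lean control and 0 to 0 for resveratrol against obese. The 1 call in obese against lean control became 0 with quantile normalisation again, with centring, with the mean of features, with the replicate block, with the compared groups alone and without resveratrol array 1 and obese array 2. Rosiglitazone against lean control had 6 with the compared groups alone and 13 (11 higher and 2 lower) with array weights. Resveratrol against lean control had 0 with quantile normalisation again, without dim genes and with the compared groups alone, and 3 with array weights. The cause of these changes was not tested.

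The labels do not say that replicate numbers pair the arrays. The correlation of deviations was -0.21 to 0.36 over 30 same-number pairs (median 0.03), with 5 over 0.1. Over pairs with other numbers it was -0.29 to 0.27 (median -0.008). These correlations cannot settle whether some numbers share animals or handling. With the replicate block the counts were 13 for rosiglitazone against obese, 11 against resveratrol, 7 against lean control, 12 over the 4 groups, 1 for resveratrol against lean control, and 0 for obese against lean control and for resveratrol against obese. Centring moved no comparison's median by more than 0.026. Members under the median gene level, 12 of 40, are limited by signal over background, which was not measured.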
